A study of Homo sapiens with 4 samples.

Results

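Cytoplasmic ribosomal protein genes were examined in RKO cells, a human colorectal cancer cell line, after knockdown of the chromatin remodeller CHD7. Members were chosen by gene symbol, and they and the gene lists below were chosen with earlier results of these data known. The rule took the RPL and RPS genes with the stalk genes RPLP0, RPLP1 and RPLP2, RPSA and the p53 target RPS27L. It left out the RPS6K kinases and hyphenated read-through genes. In all, 81 of the 15357 genes in the count table met this rule, 32 of the small subunit and 49 of the large subunit. All 81 passed the filter on low counts, and 11955 genes were tested. The cells had been infected with lentivirus and stably expressed either a control short hairpin RNA (vector, 2 samples) or the hairpin CHD7 shRNA2 (shCHD7_2, 2 samples), so the knockdown rests on 1 hairpin in 1 line. Library preparation used oligo-dT beads, which select polyadenylated mRNA. No label states that the 2 samples of a group came from separate cultures, so p-values measure the spread between these samples, which may be technical.

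The cytoplasmic ribosome is built from a small subunit, which reads the mRNA, and a large subunit, which forms peptide bonds. Its proteins are made in near equal numbers, and most of their mRNAs begin with a C followed by a run of pyrimidines, the terminal oligopyrimidine (TOP) start through which mTORC1 and LARP1 control their translation. Ribosomal proteins that are not built into ribosomes can act elsewhere, as when free RPL5 and RPL11 bind MDM2 and so stabilise p53.

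The start sites of members on which the comparisons turn are shown because this feature separates most canonical ribosomal protein genes from their paralogs. Each line holds 30 bases, 20 before the annotated RefSeq start and 10 from it on, read 5′ to 3′ on the transcribed strand (GRCh38.p14). Capitals mark a C within 5 bases of the annotated start that is followed by at least 4 C or T, as far as the run stays inside the window, and a line without capitals holds no such run.
RPS27: gcaggatttccgctttcgctCCTTTCCggc
RPS27L: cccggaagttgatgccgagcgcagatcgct
RPL22: ctgcgtagttcgctcacctcCCTTTCTaac
RPL22L1: gaccgcgcggccgtagcttcCTCTCTgctc
RPL26: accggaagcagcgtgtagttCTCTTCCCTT
RPL26L1: caggcagtcttccaggggtcggcgaacgaa
RPL7L1: cgcgccggaagtgcggcgccgtagctagga
RPL34: ctggcaaaggcttttttcttCCTCTTCCgg
RPL39: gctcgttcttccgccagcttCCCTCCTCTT
RPL36A: ttccgtttgcctcgcggtttCTTTCTTTCC
RPS7: ttccggtttccgccctcCTCCTCgcgctgt
RPL21: cgccgcggccccgcctctttCCTTTCggcc
RPL4: acatatacagcgggagtggtaagcaCTTCC
RPL6: gaagcggggagacggcgcgtgcactgtgtt

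The windows lie at chr1:153990742-153990771 on the plus strand for RPS27 and chr15:63157468-63157497 on the minus strand for RPS27L. The others of these paralog pairs lie at chr1:6199586-6199615 (minus, RPL22), chr3:170870186-170870215 (minus, RPL22L1), chr17:8383184-8383213 (minus, RPL26), chr5:172958709-172958738 (plus, RPL26L1) and chr6:42879596-42879625 (plus, RPL7L1). Those of the remaining genes are chr4:108620556-108620585 (plus, RPL34), chrX:119791621-119791650 (minus, RPL39), chrX:101390991-101391020 (plus, RPL36A) and chr2:3575240-3575269 (plus, RPS7). RPL21 is shown at chr13:27251538-27251567 (plus), RPL4 at chr15:66504846-66504875 (minus) and RPL6 at chr12:112409276-112409305 (minus). RPL26L1, RPL34 and RPL6 each have 2 annotated starts, of which 1 is shown. RefSeq starts were matched for 66 of the 81 members, and 54 of these (81.8%) had such a run, against 2773 of 9457 tested genes with a start (29.3%). Only the transcribed strand was searched, and a match is a description of the letters. Runs were found for 20 of 25 small-subunit members and 34 of 41 large-subunit members, but for only RPL22L1 among the 4 paralogs, while RPS27L, RPL26L1 and RPL7L1 had none. The other 9 members without a run were RPL6, RPL9, RPL15, RPL17, RPL27, RPS4X, RPS15, RPS26 and RPS29.

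Library totals ran from 15734666 to 16068642 rounded counts. CHD7, the targeted gene, had 85.4 and 91.0 CPM (counts scaled to library size by TMM) in the vector libraries and 55.5 and 50.1 in the shCHD7_2 libraries, a log2 fold change of -0.74 (SE 0.088, adjusted p = 4.2e-06, from the quasi-likelihood test of edgeR, adjusted over the 11955 genes by Benjamini-Hochberg, as is every adjusted p below). Of the 9 colon epithelium markers chosen, EPCAM, KRT8, KRT18 and CDX2 were counted at 161 to 1349, CDH1, KRT20 and LGALS4 at 0 or 1, and KRT19 and VIL1 were not listed in the table. The list summed to 1818 and 1933 counts in the vector and 1908 and 2132 in the shCHD7_2 libraries. Of 6 fibroblast, 5 immune and 3 endothelial markers, 2 of each list were in the table. Each list summed to no more than 7 counts per library apart from CD68, which many cell lines make and which had 13421 to 16345 counts.

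The ribosomal protein genes had a median of 1014 CPM. Together they took 10.5% and 10.3% of all counts in the vector libraries and 9.31% and 10.3% in the shCHD7_2 libraries, with means of 10.4 ± 0.118 (SD, n = 2) and 9.79 ± 0.678 (SD, n = 2). Both shCHD7_2 libraries lay below both vector libraries, but the second of them by only a small margin. The difference was -0.59 percentage points (two-sided exact permutation test, p = 0.333, the smallest that 2 samples against 2 can give, so this design cannot reach 0.05). Small-subunit genes took 3.58 ± 0.0501 (SD, n = 2) percent of counts in vector and 3.40 ± 0.261 (SD, n = 2) in shCHD7_2, and the groups overlapped (exact permutation p = 0.667). Large-subunit genes took 6.80 ± 0.0675 (SD, n = 2) and 6.39 ± 0.417 (SD, n = 2) percent, without overlap (exact permutation p = 0.333). These are shares of the sequenced RNA, and in bulk samples less ribosomal protein mRNA per cell cannot be told apart from a change in the mix of cells or from more of other RNAs.

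The shCHD7_2 libraries differed from each other in these genes by more than the vector libraries did. Relative to the mean of the vector libraries, the median of the 81 genes stood at -0.20 on the log2 scale in shCHD7_2 replicate 1 and at -0.06 in shCHD7_2 replicate 2, while the vector libraries stood within 0.007 of their mean on either side. Over all genes tested, the same medians were between -0.003 and 0.004 in the 4 libraries. Replicate 1 of shCHD7_2 was the lowest of the 4 libraries for 75 of the 81 genes. Medians over groups of these genes are therefore also given without that library.

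**Figure D1:**
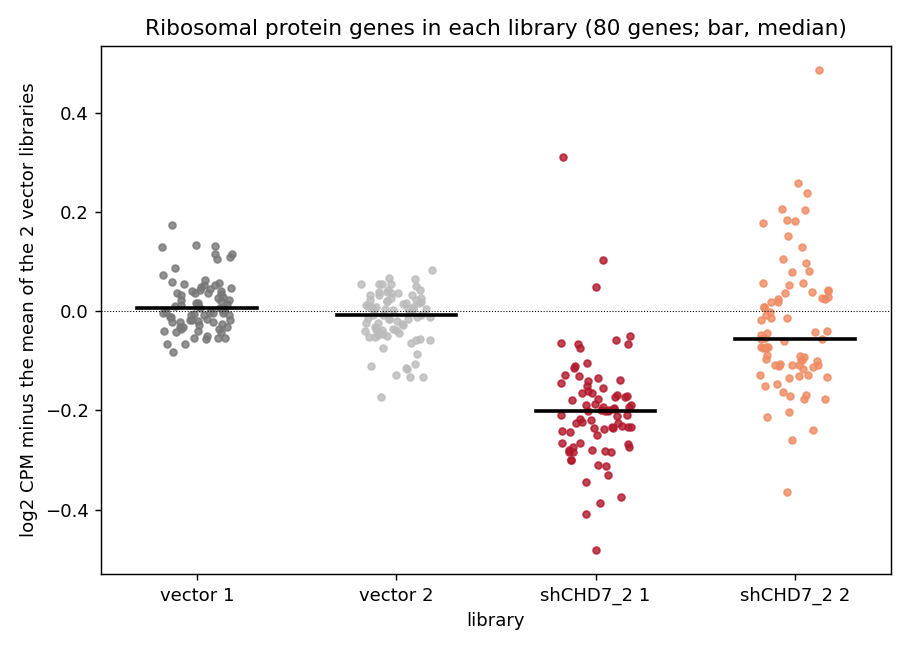
Each point is 1 of 80 ribosomal protein genes in the named library, plotted as log2 CPM minus the mean log2 CPM of the 2 vector libraries, and the bar is the median. The points of shCHD7_2 replicate 1 centre on -0.20 and those of shCHD7_2 replicate 2 on -0.06.

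No ribosomal protein gene met both call limits in edgeR (a change of 1.5-fold or more with adjusted p below 0.05), against 2.88% of all genes tested. DESeq2 and limma on FPKM also called 0, and 27 of the 81 genes (33.3%) had an unadjusted p under 0.05 in edgeR, against 25.4% of all genes tested. With no fold threshold, 11 passed the adjusted p, 10 lower and 1 higher in shCHD7_2, that is 12.3% lower and 1.23% higher, against 6.54% lower and 4.94% higher among all genes tested (11.5% in either direction). The median log2 fold change of the 81 genes was -0.13, against 0.0006 over all genes tested, and 71 of the 81 were below 0. In CPM, both shCHD7_2 libraries lay under both vector libraries for 47 genes (58.0%, against 27.3% of all genes tested) and above both for 3 genes (3.70%, against 26.4%). Those 3 were RPS27L, RPL7L1 and RPS24, the last named after its values were seen.

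Genes with many counts can pass at small folds, so the other 788 tested genes at a mean of 200 CPM or more, a limit chosen after the data were seen, are given beside these. Of those, 14.5% passed the adjusted p lower and 4.95% higher, 61.8% were below 0, and their median log2 fold change was -0.05. Both shCHD7_2 libraries lay under both vector libraries for 42.6% of them and above both for 20.4%, and 34.6% had an unadjusted p under 0.05. With all 4 libraries, the share of ribosomal protein genes that passed lower was thus near that of other abundant genes, while their median was further below 0. Without shCHD7_2 replicate 1, the medians were -0.06 for the ribosomal protein genes and -0.06 for the other abundant genes. The 78 mitochondrial ribosomal protein genes, which serve the separate ribosome of that organelle, had a median of 0.07, with 1 gene lower and 1 higher past the adjusted p, and 0.11 without that library. They took 0.485 ± 0.00645 (SD, n = 2) percent of counts in vector and 0.514 ± 0.0215 (SD, n = 2) in shCHD7_2, without overlap of the groups (exact permutation p = 0.333).

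Without shCHD7_2 replicate 1, the median of the 81 genes was -0.06, 52 were below 0, and 6 passed lower and 3 higher (RPS27L, RPS21 and RPLP2), 11.1% in all, against 14.1% of all genes tested in that fit. Without shCHD7_2 replicate 2, the median was -0.20, and 43 passed lower and 1 higher (54.3%, against 9.65% of all genes). Leaving out vector replicate 1 left 4 lower and 0 higher (4.94%, against 6.73%), and leaving out vector replicate 2 left 1 lower and 1 higher (2.47%, against 5.04%). The share of members that passed was thus above that of all genes with all libraries or without shCHD7_2 replicate 2, and below it in the other 3 fits. RPL23 passed lower in all 4 of these fits, each of which leaves 1 library in an arm and assumes that it varies like the other group. Over the 21 alternatives tried, RPL23 lost its pass in 3, RPL6, RPL34 and RPS27L in 4, RPL39 in 9, RPL4 and RPL5 in 10, and RPS7, RPL21 and RPL36A in 11.

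**Figure D2:**
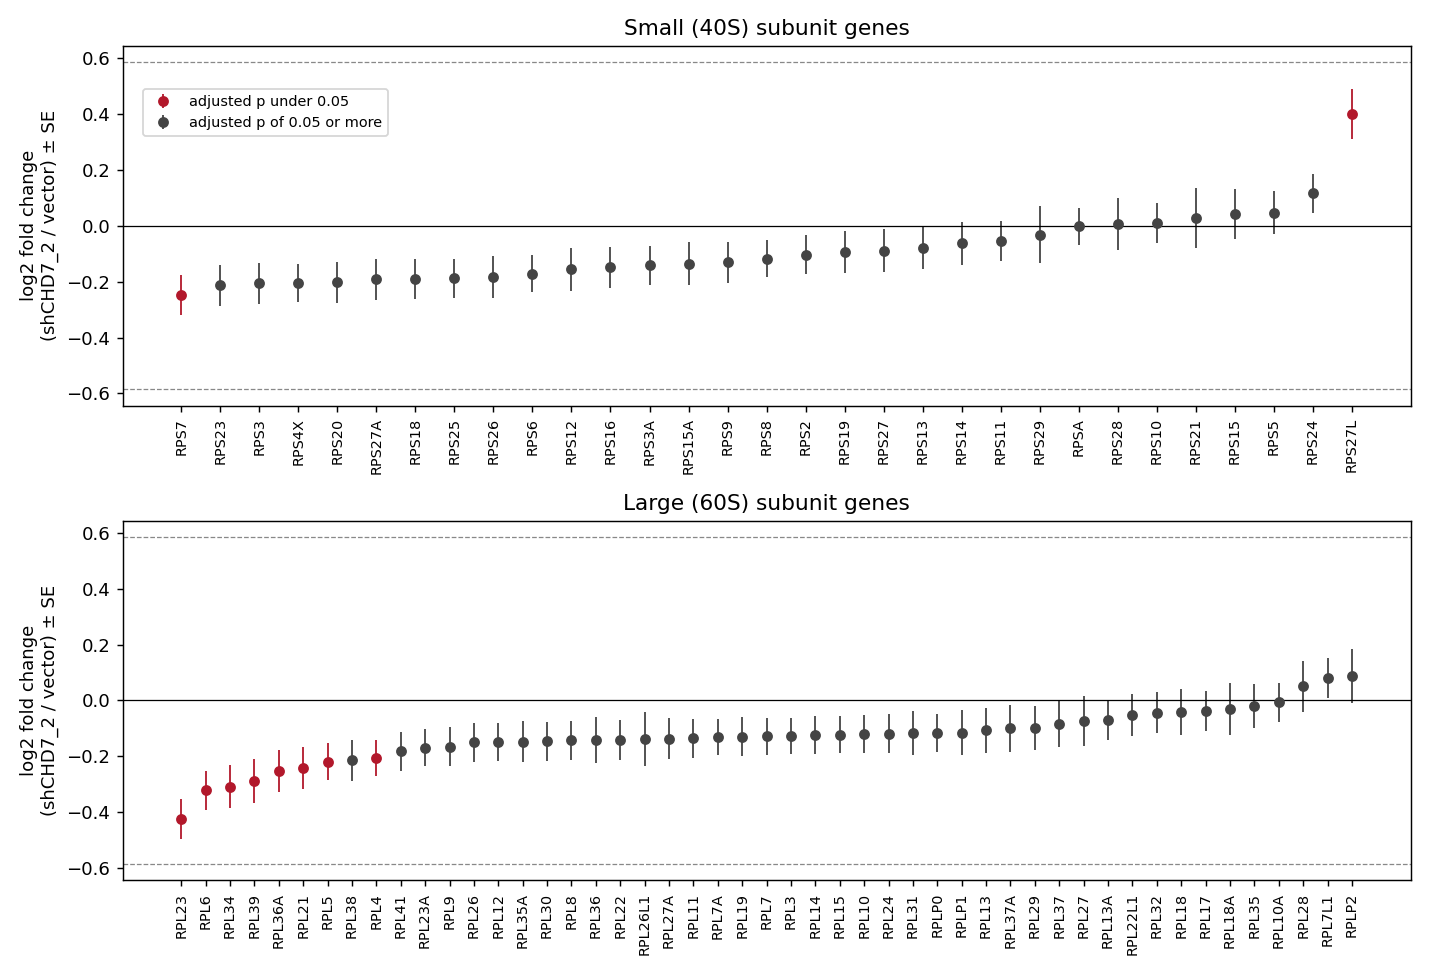
Log2 fold change of shCHD7_2 over vector (point) with its standard error (bar) for 31 small-subunit and 49 large-subunit genes, ordered within each panel. Red points passed an adjusted p under 0.05 in edgeR, dashed lines mark a fold of 1.5 in either direction, and no point reaches them, the farthest being RPL23 at -0.42 and RPS27L at 0.40.

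Among small-subunit genes, 2 passed lower, RPS7 among them, and RPS27L passed higher, which is 6.25% lower and 3.12% higher, against 6.54% and 4.94% of all genes tested. The median of the 32 genes was -0.12. It was -0.05 without shCHD7_2 replicate 1. RPS7 (chr2:3575205-3580920, plus strand, GENCODE 29 on GRCh38, as for the gene positions below), a small-subunit protein which also binds MDM2, had 792.2 and 794.3 CPM in vector and 630.9 and 705.7 in shCHD7_2, a log2 fold change of -0.25 (SE 0.073, adjusted p = 0.028 from edgeR). Its vector libraries were nearly equal and its shCHD7_2 libraries were further apart. It did not pass without vector replicate 1, vector replicate 2 or shCHD7_2 replicate 1 (adjusted p = 0.19, 0.26 and 0.12 from edgeR).

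The small-subunit genes next in order did not pass. RPS4X had a log2 fold change of -0.21 (adjusted p = 0.052 from edgeR) and RPS23, a protein of the decoding centre, -0.21 (adjusted p = 0.064). RPS3 and RPS20 followed at -0.21 and -0.20 (adjusted p = 0.072 and 0.076 from edgeR). At the other end, RPS24, which had 1105 and 1139 CPM in vector and 1160 and 1272 in shCHD7_2, had a log2 fold change of 0.12 (adjusted p = 0.32 from edgeR).

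Among large-subunit genes, 8 passed lower and none higher by edgeR, which is 16.3% lower, against 6.54% of all genes tested and 14.5% of other abundant genes. Of the 49, 46 were below 0, and the median was -0.13. With shCHD7_2 replicate 1 left out, 34 were below 0 and the median was -0.08. RPL23 (chr17:38847865-38853843, minus strand), which binds MDM2 when free, had 1200.3 and 1295 CPM in the vector libraries and 892.8 and 968.3 in the shCHD7_2 libraries. It fell by 25.4%, a log2 fold change of -0.42 (SE 0.071, adjusted p = 0.00033 from edgeR), the lowest value of all 81 genes. RPL6 (chr12:112405190-112418838, minus strand) had 1513 and 1544 CPM in vector and 1169 and 1277 in shCHD7_2, a log2 fold change of -0.32 (SE 0.069, adjusted p = 0.0032 from edgeR). RPL6 did not pass without vector replicate 2 (adjusted p = 0.097 from edgeR). In both genes the gap between the groups was wider than the gap between the libraries of either group.

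RPL34 (chr4:108620566-108630412, plus strand) had 481.0 and 539.3 CPM in vector and 392.6 and 431.5 in shCHD7_2 and a log2 fold change of -0.31 (SE 0.077, adjusted p = 0.0099 from edgeR). RPL39 (chrX:119786504-119791643, minus strand), a small protein that lines the peptide exit tunnel, had 526.4 and 556.0 CPM in vector and 407.2 and 478.3 in shCHD7_2. Its log2 fold change was -0.29 (adjusted p = 0.017 from edgeR). RPL4 (chr15:66498015-66524532, minus strand), whose long loop reaches into the same tunnel, had 3681 and 3823 CPM in vector and 3187 and 3318 in shCHD7_2. It had a log2 fold change of -0.21 (SE 0.065, adjusted p = 0.040 from edgeR), the smallest that passed. Without vector replicate 2, none of RPL34, RPL39 and RPL4 passed (adjusted p = 0.34, 0.25 and 0.48 from edgeR). Without vector replicate 1, RPL39 (0.058) and RPL4 (0.19) did not, and without shCHD7_2 replicate 1, RPL39 (0.11) did not.

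RPL36A (chrX:101390824-101396154, plus strand) and RPL21 (chr13:27251309-27256691, plus strand) also passed lower. RPL36A had 775.6 and 838.1 CPM in vector and 635.1 and 720.0 in shCHD7_2, a log2 fold change of -0.25 (adjusted p = 0.032 from edgeR). RPL21 had 827.2 and 907.0 CPM in vector and 697.3 and 769.2 in shCHD7_2, a log2 fold change of -0.24 (adjusted p = 0.036 from edgeR). The groups did not overlap in either gene. Of the 4 fits that left out a library, both passed only in that without shCHD7_2 replicate 2, and not in those without vector replicate 1 (adjusted p = 0.079 for RPL36A and 0.078 for RPL21 from edgeR), vector replicate 2 (0.45 and 0.52) or shCHD7_2 replicate 1 (0.13 and 0.10). The deposited counts of RPL36A and RPL39, like those of 12 other members, held fractions in at least 1 library, as when reads are shared with copies of a gene, so these values are uncertain. The read-through gene RPL36A-HNRNPH2 was counted at 192 and 104 in vector and at 64 and 282 in shCHD7_2.

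RPL5 and RPL11, which enter the large subunit together and bind MDM2 when free, were taken as a pair. RPL5 (chr1:92831983-92841924, plus strand) had 1452 and 1455 CPM in vector and 1244 and 1254 in shCHD7_2, with a spread inside each group far smaller than the gap between the groups. With 2 libraries in each group, this closeness does not show how much RPL5 varies. RPL5 fell by 14.1%, a log2 fold change of -0.22 (SE 0.066, adjusted p = 0.034 from edgeR). It did not pass without vector replicate 1 or vector replicate 2 (adjusted p = 0.25 and 0.34 from edgeR), nor with library totals (0.077) or upper-quartile scaling (0.065). RPL11 (chr1:23691742-23696835, plus strand) had 1263 and 1303 CPM in vector and 1116 and 1221 in shCHD7_2. Its groups did not overlap, but its log2 fold change of -0.14 (SE 0.070, adjusted p = 0.23 from edgeR) did not pass.

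RPLP0, RPLP1 and RPLP2 form the stalk, the flexible arm that recruits translation factors. RPLP0 had 4464 and 4385 CPM in vector and 3867 and 4297 in shCHD7_2, a log2 fold change of -0.12 (adjusted p = 0.29 from edgeR). RPLP1 had 1092 and 1016 CPM in vector and 875.9 and 1071 in shCHD7_2, a log2 fold change of -0.12 (adjusted p = 0.41 from edgeR). RPLP2 had 1001 and 786.6 CPM in vector and 852.0 and 1047 in shCHD7_2, a log2 fold change of 0.09 (SE 0.096, adjusted p = 0.62 from edgeR). None of the 3 stalk genes passed, and RPLP1 and RPLP2 overlapped between the groups. RPLP2 passed higher without shCHD7_2 replicate 1.

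**Figure D3:**
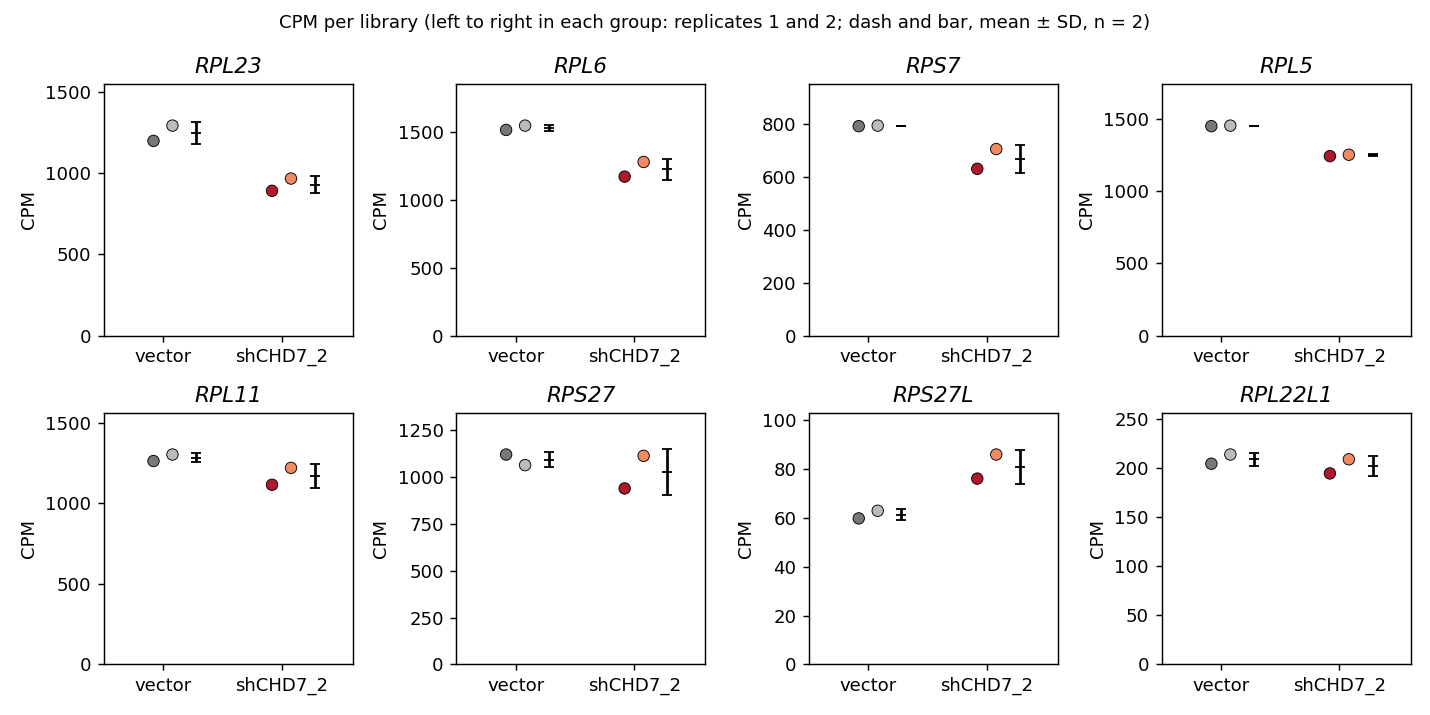
CPM in each library (points, replicate 1 left and replicate 2 right) with the mean and SD of each group of 2 for 8 ribosomal protein genes, on axes from 0. RPL5 lies at 1452 and 1455 in vector against 1244 and 1254 in shCHD7_2, RPS27L lies higher in shCHD7_2, and RPS27 and RPL22L1 overlap between the groups.

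RPS27L (chr15:63125872-63158021, minus strand), the p53-induced paralog of RPS27, was the only one of the 81 genes that passed higher with all 4 libraries. It had 59.6 and 62.8 CPM in the vector libraries and 75.9 and 85.7 in the shCHD7_2 libraries, from 926 and 991 counts in vector and 1217 and 1368 in shCHD7_2. Both shCHD7_2 libraries were above both vector libraries, and the log2 fold change was 0.40 (SE 0.089, adjusted p = 0.0041 from edgeR). Without vector replicate 1 it was 0.36 and no longer passed (adjusted p = 0.067 from edgeR). RPS27 (chr1:153990755-153992155, plus strand) had 1121 and 1065 CPM in vector and 940.0 and 1114 in shCHD7_2, a log2 fold change of -0.09 (adjusted p = 0.51 from edgeR) with overlapping groups. In FPKM, RPS27L stood at 1.17% and 1.27% of RPS27 in vector and at 1.74% and 1.71% in shCHD7_2, a ratio that did not overlap between the groups. CDKN1A, the p53 target that encodes p21, rose over the same libraries (log2 fold change 1.04, adjusted p = 4.7e-09 from edgeR), and MDM2 stood at 0.13 (adjusted p = 0.33).

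The other 3 paralogs in the table did not pass. RPL22L1, the paralog of the RNA-binding protein RPL22, had 204.8 and 214.2 CPM in vector and 195.0 and 209.4 in shCHD7_2, a log2 fold change of -0.05 (adjusted p = 0.72 from edgeR). RPL26L1 had 35.4 and 37.0 CPM in vector and 34.4 and 31.4 in shCHD7_2, a log2 fold change of -0.14 (adjusted p = 0.40 from edgeR). RPL7L1, which acts in ribosome assembly, had 300.1 and 308.9 CPM in vector and 327.0 and 316.7 in shCHD7_2, a log2 fold change of 0.08 (adjusted p = 0.53 from edgeR). RPL22L1 overlapped between the groups, while RPL26L1 was lower and RPL7L1 higher in both shCHD7_2 libraries.

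In FPKM, RPL22L1 stood at 45.5 ± 0.993 (SD, n = 2) percent of RPL22 in vector and 48.4 ± 1.93 (SD, n = 2) in shCHD7_2. RPL26L1 stood at 1.52 ± 0.0234 (SD, n = 2) and 1.54 ± 0.156 (SD, n = 2) percent of RPL26, and RPL7L1 at 1.72 ± 0.0231 (SD, n = 2) and 1.99 ± 0.0687 (SD, n = 2) percent of RPL7. The canonical partners RPL22, RPL26 and RPL7 had log2 fold changes of -0.14, -0.15 and -0.13 (edgeR, adjusted p = 0.23, 0.17 and 0.23). RPL3 and RPL10, whose paralogs were not listed in the table, had -0.13 and -0.12 (adjusted p = 0.22 and 0.29 from edgeR). RPL39, whose paralog RPL39L was not listed either, is given above.

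Levels are compared between genes in FPKM, as deposited, which divides by a length for each gene and by library size. RPL41, the shortest ribosomal protein, had the highest mean at 6725 ± 487 (SD, n = 4), with 7017 and 7135 in vector and 6048 and 6699 in shCHD7_2. It was followed by RPS27 (5256 ± 293, SD, n = 4), RPS2 (5192 ± 286), RPL7A (5030 ± 195) and RPL35 (4789 ± 309). RPS27 and RPS2, and RPS2 and RPL7A, differed by less than the SD of either, while RPS27 and RPS2 were above RPL35 in all 4 libraries. None of the 5 passed the test by edgeR, their log2 fold changes running from -0.18 for RPL41 (adjusted p = 0.11) through -0.13 for RPL7A (0.21), -0.10 for RPS2 (0.37) and -0.09 for RPS27 to -0.02 for RPL35 (0.91). The median over the 81 genes was 1859 FPKM.

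At the low end stood RPS23 (215.9 ± 17.9, SD, n = 4), RPL22L1 (114.2 ± 3.47), RPS27L (77.0 ± 14.1), RPL7L1 (75.25 ± 3.81) and RPL26L1 (60.2 ± 3.66). RPS27L was below RPL7L1 in both vector libraries (63.6 and 67.0 against 71.3 and 72.7 FPKM) and above it in both shCHD7_2 libraries (84.0 and 93.5 against 79.3 and 77.6), so their order differed by group. RPL26L1 was the lowest in each library. The 4 paralogs were therefore the 4 lowest of the 81. The length implied by the deposited counts and FPKM was 201 bases for RPS27 and 310 for RPL41, but 3153 for RPS23, 4341 for RPL13 and 4718 for RPL27A, so part of the order in FPKM moves with the transcript that was counted. Per kilobase of coding sequence instead, RPS23 had 1590 CPM and ranked 56 of 81, while the 4 lowest were again RPL22L1 (483 CPM per kilobase), RPL7L1 (409), RPS27L (237) and RPL26L1 (79.4).

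**Figure D4:**
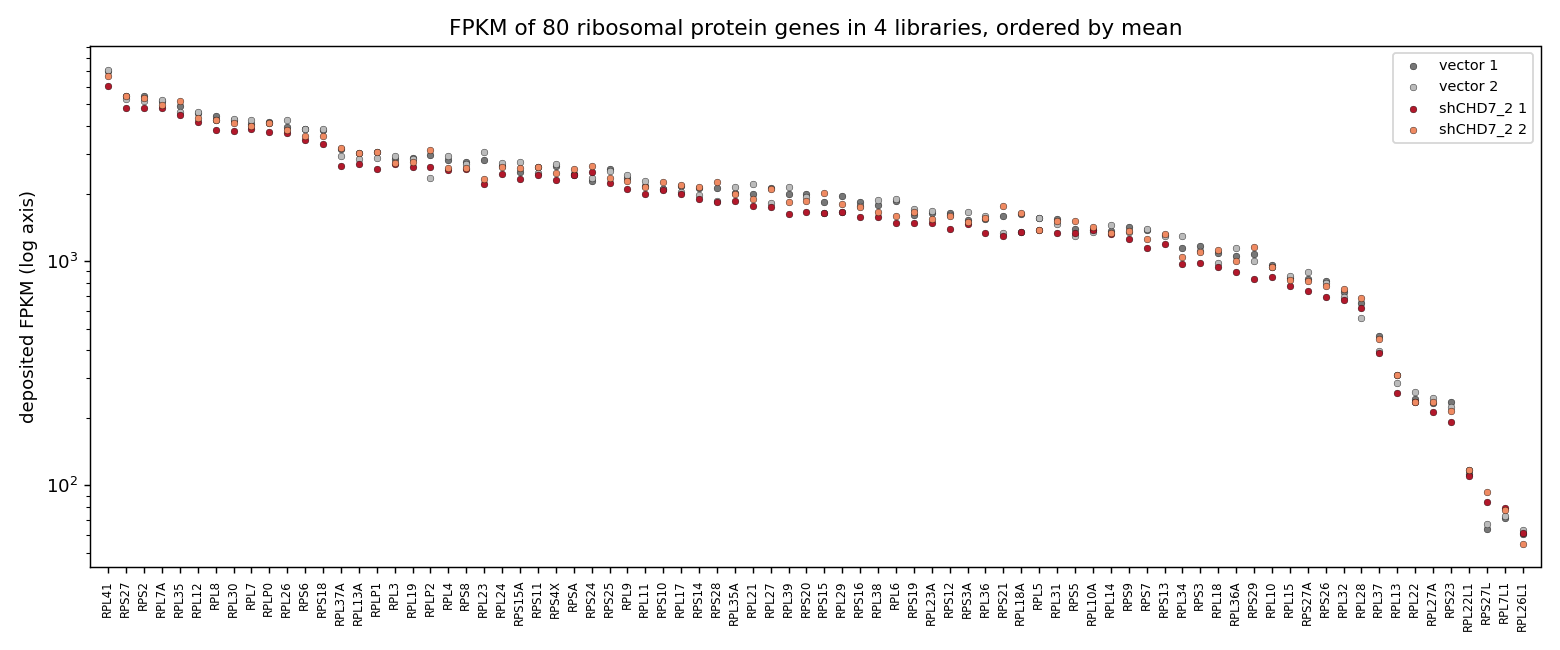
Deposited FPKM (log axis) of 80 ribosomal protein genes in 4 libraries, ordered from the highest mean (RPL41, 6725) to the lowest (RPL26L1, 60.2). The paralogs RPL22L1, RPS27L, RPL7L1 and RPL26L1 form the low end, and in RPS27L the 2 shCHD7_2 points lie above the 2 vector points.

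Groups of members with a known role were described by their counts and medians. Of the 11 ribosomal proteins listed here as binding MDM2, RPL23, RPS7 and RPL5 passed lower (27.3%) and RPS27L higher (9.09%). The median log2 fold change of the 11 was -0.19, against -0.13 over the 81 genes. Of 18 listed genes mutated in Diamond-Blackfan anaemia, an inherited failure of red cell production, RPS7 and RPL5 were among those that passed lower (16.7%). None of the 18 passed higher, and their median was -0.10. Among all genes tested, 6.54% passed lower and 4.94% higher, and among other abundant genes 14.5% and 4.95%. Among genes that passed, the MDM2 and anaemia lists share RPS7 and RPL5. Without shCHD7_2 replicate 1, the medians were -0.11 for the MDM2-binding group and -0.005 for the anaemia genes. The 4 ribosomal genes outside the naming pattern had a median of -0.06, or 0.01 without shCHD7_2 replicate 1, and none passed. They include the ubiquitin-type fusion FAU (-0.06), the small-subunit scaffold RACK1 (-0.15, adjusted p = 0.16 from edgeR) and RPL36AL (-0.06).

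Other mRNAs known for TOP starts, such as those of elongation factors, were given beside the ribosomal protein genes. Of 20 listed, 17 were tested, all 17 had log2 fold changes below 0, and the median was -0.14. In this list 3 passed lower (17.6%, against 6.54% of all genes tested and 14.5% of other abundant genes) and none higher by edgeR. These were NAP1L1, a histone chaperone (-0.36, adjusted p = 0.0014), VIM, an intermediate filament protein (-0.31, adjusted p = 0.024), and TPT1, the translationally controlled tumour protein (-0.27, adjusted p = 0.012). Without shCHD7_2 replicate 1, 15 of the 17 were below 0 and the median was -0.11. Both shCHD7_2 libraries lay under both vector libraries for 14 of the 17 (82.4%), against 27.3% of all genes tested and 42.6% of the other abundant genes.

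Among genes that are not members, the 2719 with a pyrimidine run at their annotated start had a median log2 fold change of -0.01 and 8.28% of them passed lower. The 6672 without a run had a median of 0.008 and 5.56% passed lower. Among the members, the 54 with a run had a median of -0.13 and 6 passed lower, and the 12 without a run had a median of -0.10, with RPL6 lower and RPS27L higher. Without shCHD7_2 replicate 1, the medians were -0.06 for the 54 and -0.02 for the 12, and for the other genes -0.01 with a run and 0.003 without. Starts of RPL23 and RPL5 were not analysed here.

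Of 16 genes listed for mTORC1 signalling and the translation of these mRNAs, including LARP1, MTOR and the ribosomal protein S6 kinases, 8 were below 0. In this list 2 passed lower (12.5%) and 1 higher (6.25%), against 6.54% and 4.94% of all genes tested. The median log2 fold change was 0.01, and -0.02 without shCHD7_2 replicate 1. CNBP, which binds TOP mRNAs, had 470.1 and 497.1 CPM in vector and 370.6 and 380.0 in shCHD7_2 and passed lower (-0.37, adjusted p = 0.0013 from edgeR). LARP4B, a La-related protein, passed lower (-0.41, adjusted p = 0.0013), and EIF4EBP2, a repressor of cap-dependent initiation that mTORC1 phosphorylates, had 52.3 and 54.1 CPM in vector and 73.2 and 70.7 in shCHD7_2 and passed higher (0.43, adjusted p = 0.0015).

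Of 18 chaperones and importers of ribosomal proteins, 3 passed lower (16.7%) and 1 higher (5.56%) by edgeR. Among all genes tested these shares were 6.54% and 4.94%. The median of the 18 was -0.02, and -0.04 without shCHD7_2 replicate 1. The lower genes were NAP1L1, given above, RPF2, which helps to place RPL5 and RPL11 in the large-subunit precursor (-0.35, adjusted p = 0.0077), and the import receptor KPNB1 (-0.22, adjusted p = 0.046). GRWD1, a chaperone of RPL3, passed higher (0.29, adjusted p = 0.048).

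GC content moved with the differences between libraries of the same group. GC was taken from 1 transcript per gene and ran from 36.3% to 63.8% over the 81 genes. Across these genes, which share their libraries and are not independent, the difference of vector replicate 2 minus replicate 1 had a Pearson correlation with GC of -0.58, and that of shCHD7_2 replicate 2 minus replicate 1 one of 0.39. For the log2 fold change between the groups it was 0.21, and 0.42 without RPS27L, the gene of lowest GC and highest fold change. Spearman correlations of these 3 differences with GC were -0.57, 0.37 and 0.37. Over the 11744 genes tested with a GC value they were -0.52, 0.54 and 0.18. The relations between replicates were thus not particular to ribosomal protein genes, while that of the log2 fold change was weaker over all genes. All 11 genes that passed the adjusted p lay between 36.3% and 48.4% GC, among the 41 genes at or under the median of 49.4%. The median log2 fold change of those 41 was -0.15, and that of the 40 genes above was -0.11, with 33 of the 40 below 0. These medians were, without shCHD7_2 replicate 1, -0.10 and -0.02, and 21 of the 40 were below 0. With offsets for GC and length in each library, added after the data were seen, the median of the 81 genes was -0.12 and 46 passed lower and 1 higher, while 25.9% of all genes tested passed in either direction. The part of GC in which genes passed was not tested beyond this.

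**Figure D5:**
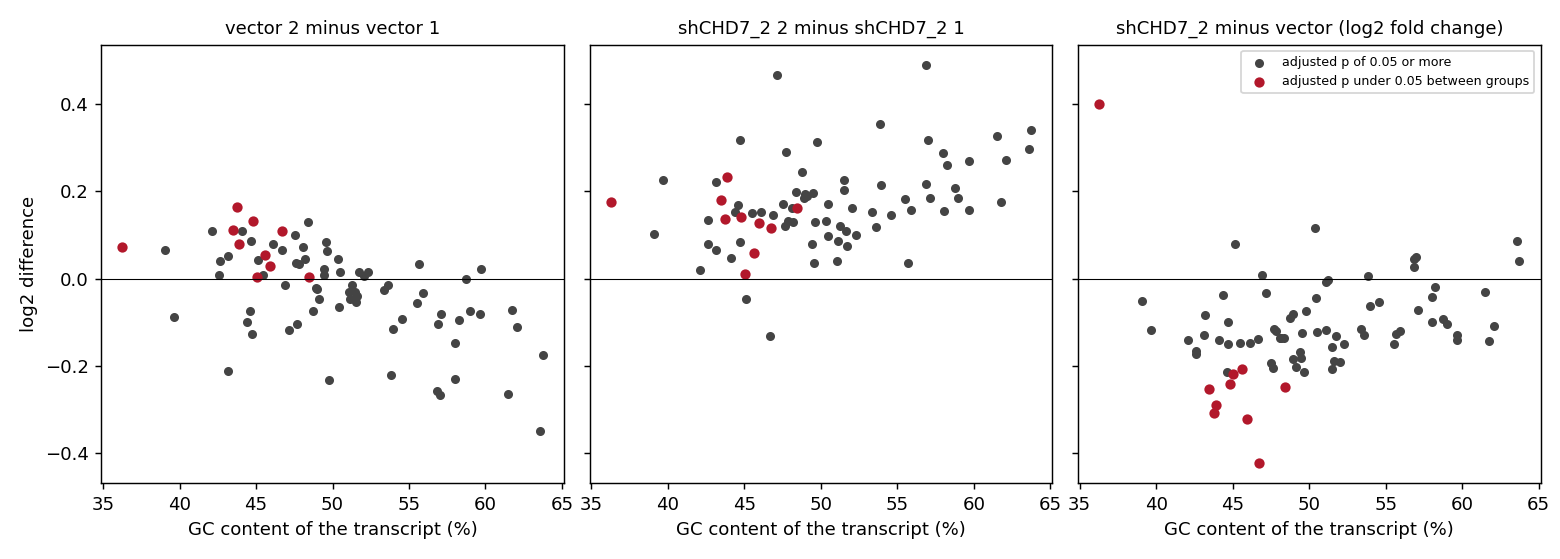
Log2 difference against transcript GC content (percent) for 80 ribosomal protein genes, for the replicates of vector (left), the replicates of shCHD7_2 (middle) and the log2 fold change between the groups (right). Red marks the 10 plotted genes past an adjusted p under 0.05 between the groups, which all lie at or below 48.4% GC, and the differences between replicates slope down in vector and up in shCHD7_2 (Pearson r of -0.58 and 0.39 over all 81 genes).

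The 3′ UTRs of ribosomal protein genes are short. The 80 members with one in GENCODE 29 had a median of 64.5 bases, and the 10 members that passed lower had one of 118.5 bases, against 794 bases over 11369 tested genes.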

How the data were processed

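RNA-seq of 4 RKO samples was analysed, 2 vector and 2 shCHD7_2, grouped by the sample labels. The authors deposited expected counts (RSEM estimates per gene, not normalized) and FPKM (normalized by the authors for length and depth). The submitters' processing notes name Bowtie2, RSEM, DESeq2 and hg38, without versions. Members and lists were chosen with earlier results of these data known. Expected counts were rounded and tested in R 4.3.3 with edgeR 4.0.16 (filterByExpr, TMM, quasi-likelihood test) over 11955 genes. Standard errors came from the F statistic. Library totals were 15734666 to 16068642 counts. Of all columns, 0 could not be mapped to a sample. Averaged over genes, counts within each group differed by more than sampling noise (chi-square per gene 3.94 and 6.05), which need not hold for each gene.

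Named were members past the adjusted p, paralogs with their partners, RPL5, RPL11, the stalk, the 5 highest and 5 lowest members by FPKM, and up to 5 genes per other list past the adjusted p. RPS24, RPS4X, RPS3, RPS20, RPS21, CDKN1A and MDM2 were chosen after their values were seen. Alternatives used DESeq2 1.42.0, limma 3.58.1 on log2(FPKM + 1) or log2(FPKM + 0.1), other scalings and filters, a replicate block, addition of the pseudogene RPSAP58 to RPSA, and each sample left out. The pairing numbers come from the labels, and deviations of same-numbered samples correlated at -0.17 over all genes and -0.50 over the 8765 genes above 4 log2 CPM, and samples were not treated as paired. Data of 11883 genes were simulated for this comparison. There, edgeR called 92 of 98 genes changed by 1 and 77 of 100 changed by 0.7 on the log2 scale. Wrong calls numbered 0. Recovery of smaller changes, such as those of the ribosomal protein genes (-0.42 to 0.40), was not tested. GC and 3′ UTRs came from GENCODE 29, starts from RefSeq. Protein sequences were not used here. Python 3.11.15 with pandas 2.3.3 and scipy 1.17.1 was used. The values of 2 genes covered by the naming rule or the lists are not reported here, and figures plot the 80 members that are.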

Additional observations from a re-analysis of the deposited data

How the results depend on the processing

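No ribosomal protein gene was called at a fold of 1.5 under any alternative with a fold threshold, and 11 passed without one. In edgeR 11 of these genes passed the adjusted p (13.6%, against 11.5% of all genes tested), and 11 with DESeq2 (13.6% against 6.69%). The share fell below that of all genes with library totals (6 genes, 7.41% against 12.4%) and upper-quartile scaling (6 genes, 7.41% against 10.3%). It was also below with limma on log2(FPKM + 1) or log2(FPKM + 0.1) (5 genes in each, 6.17% against 10.4% and 10.3%). The number was 0 with no filter on low counts (against 1.31% of all genes) and 0 with limma on unfiltered FPKM (against 0.159%). Leaving out a replicate gave 2 to 44. Their median log2 fold change stayed below 0 under all 19 alternatives, from -0.20 to -0.061 as replicates were left out. With library totals it was -0.08 and with limma on FPKM -0.09, while the median over all genes moved to 0.04. The difference in summed share was -1.07 to -0.11 percentage points as replicates were left out.

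With the replicate number as a block, 5 of the 81 genes passed (RPL23, RPL6, RPS27L and RPL34 among them), 6.17% against 6.32% of all genes tested, the median was -0.13 and the log2 fold change of CHD7 was -0.74. Crossed pairing, added after the data were seen, gave 40 of the 81 genes and 3751 of all genes past the adjusted p, and 0 and 423 with the fold threshold. Offsets for GC and length, also added later, gave 47 (58.0%, against 25.9% of all genes), and 43 with the replicate block.

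RPS27L kept its direction in all alternatives (0.31 to 0.48 as replicates were left out). It missed the threshold with no filter on low counts (0.40, adjusted p = 0.099 from edgeR), with glmTreat against a fold of 1.5 (0.40), with limma on unfiltered FPKM (0.43, adjusted p = 0.11) and without vector replicate 1. CHD7 missed it with glmTreat (-0.74) and with limma on unfiltered FPKM (-0.51). RPL35 changed sign with library totals (0.024) and with limma on FPKM (0.012 in each version) and ran from -0.16 to 0.10 as replicates were left out. RPLP2 ran from -0.077 to 0.27, RPS27 from -0.22 to 0.023 and RPLP1 from -0.27 to 0.018. Over all genes, 344 calls became 141 with no filter, 68 with glmTreat, 219 with DESeq2, 172 with limma on log2(FPKM + 1), 23 with limma on unfiltered FPKM and 1373 with no fold threshold. The cause of these moves was not tested.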
